A study of Mus musculus with 5 samples.

Results

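The 10 transcription factor genes followed here through every library of the series belong to the ILC2 lineage: *Gata3*, *Rora*, *Id2*, *Bcl11b*, *Tcf7*, *Ets1*, *Gfi1*, *Nfil3*, *Zbtb16* and *Bhlhe40*. They were chosen by symbol, as genes known from ILC2 development and identity, and they are 10 of the 27726 genes held by all 5 count matrices. Single-cell RNA was measured on the 10x Genomics 3′ platform in ILC2s sorted from mouse lung as lineage-negative cells with ST2 (the product of *Il1rl1*), CD127, Thy1.2 and CD45 on the surface. There was 1 naïve library, from mice without a tumour, freshly isolated and non-activated. There were 2 ta-non-activated libraries, freshly isolated at week 2 and week 3 from tumour-carrying mice, and 2 ta-activated libraries from the same weeks. The tumour was TC1, a mouse lung tumour line carrying HPV E6/E7 and an activated ras gene, injected under the skin, so the lung the cells came from was not the injection site. Ta-activated cells were cultured for 7 days with 10 ng/mL each of IL-2, IL-33 and TSLP before sequencing. The ta-non-activated and ta-activated libraries are called fresh ta and cultured ta libraries from here on. All mice were female WT C57BL/6 of 4 to 8 weeks, and each library pooled the cells of 5 mice. None of these 5 libraries held cells cultured without the cytokines, so an effect of culture cannot be told apart from one of activation.

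Type 2 innate lymphoid cells are tissue-resident lymphocytes without antigen receptors that answer alarmins such as IL-33 and TSLP by secreting IL-5 and IL-13. Their development from a common lymphoid progenitor is stepwise: NFIL3, ID2 and TCF-1 (encoded by *Tcf7*) act in early innate progenitors, PLZF (*Zbtb16*) marks a later precursor, and GATA3, RORα, BCL11B, GFI1 and ETS1 shape the ILC2 branch. Several of the same factors, TCF-1, BCL11B and GATA3 above all, are also central to T cell development in the thymus, which makes early T cells an informative comparison.

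Barcodes with at least 200 detected genes and under 5% mitochondrial counts were kept, which left 16530 of the 18628 deposited. Gated ILC2s were kept cells with at least 1 unique molecular identifier (UMI, 1 counted RNA molecule) of *Il1rl1*, the IL-33 receptor gene, or of *Gata3*, and with fewer than 2 of 6 thymocyte genes (*Dntt*, *Ptcra*, *Arpp21*, *Myl10*, *Ly6d*, *Rag1*). Cells with 2 or more of the 6 were called thymocyte-like. Naïve cells passed the gate at 92.1% (5886 cells), week 2 and week 3 fresh ta cells at 97.1% (1770) and 36.8% (589), and week 2 and week 3 cultured ta cells at 93.6% (2711) and 97.7% (3736). Thymocyte-like cells numbered 848 in the week 3 fresh ta library, 1 and 6 in the week 2 and week 3 cultured ta libraries and 0 in the others. They were kept out of the ILC2 gate because 309 of the 848 held a *Gata3* UMI. Because the gate reads *Gata3*, its level in gated cells is a description between libraries and against thymocyte-like cells.

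Levels are given as CPM, the UMIs of a gene scaled to a library total of 1000000, from counts summed over the gated cells of a library, with exact Poisson 95% intervals. Those intervals, and the intervals and limits on shares of cells, cover counting error only, not the spread between mice. In total 30245436 UMIs were summed for naïve cells, 32830518 and 1799499 in the fresh ta libraries, and 55554005 and 61551280 in the cultured ta libraries. The week 3 fresh ta value has the widest interval of the 5 for each of the 10 genes. The 11 ILC2 markers summed to 5970 CPM or more in the gated cells of every library. They include the gate genes *Il1rl1* and *Gata3* and the member *Rora*, so the gate helped to set this sum. In week 2 fresh ta cells *Il13* alone held 8926 of the 11967 CPM. The 8 T cell markers, among them *Trbc1*, *Trbc2* and *Cd3g*, summed to 284 to 1220 CPM in gated cells and to 7249 CPM in thymocyte-like cells. Each pair of libraries shared between 1 and 8 cell barcodes.

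Some properties of whole libraries touch every comparison below. The week 2 library labelled ta-non-activated lay with the cultured ta libraries on some ILC2 genes and not on others. *Il13* stood at 8926 CPM there, against 59.1 in the naïve and 94.5 in the week 3 fresh ta library and 3583 and 4331 in the cultured ta libraries. Its *Il1rl1* level was 57.0 CPM, beside 48.1 and 121 in cultured ta cells and 847 and 426 in the naïve and week 3 fresh ta cells. *Il5*, at 1234 CPM beside 1356 and 931 in cultured ta cells, lay with them too. *Icos*, at 351 CPM against 1173 and 1015 in cultured ta cells, did not, nor did *Areg*, at 352 against 1120 and 600. The tests that use this library are given with and without it. The naïve library also differed from the others by gene structure: genes with over 100 kb of introns were higher there by a median of 2.73 on the log2 scale against week 2 fresh ta cells and by 1.93 against week 3, while genes with 1 to 10 kb had medians of -0.90 and -0.35. *Rora* (721 kb of introns), *Zbtb16* (177 kb) and *Ets1* (113 kb) belong to the long class. *Bcl11b* has 85.1 kb, *Gata3* 28.98 kb, *Tcf7* 28.0 kb, *Nfil3* 11.8 kb, *Gfi1* 6.19 kb, *Bhlhe40* 1.59 kb and *Id2* 0.904 kb. The naïve matrix was made with Cell Ranger 6.0.0 and the other 4 with 3.0.2, and the part of either in the naïve levels was not tested.

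The 10 genes are spread over 7 mouse chromosomes (GRCm38, GENCODE M21). *Gata3* lies at chr2:9857078-9890034 on the minus strand, *Rora* at chr9:68653786-69388246 (plus), *Id2* at chr12:25093799-25097140 (minus) and *Bcl11b* at chr12:107910403-108003602 (minus). *Tcf7* spans chr11:52252371-52283014 (minus), *Ets1* chr9:32636221-32757820 (plus) and *Gfi1* chr5:107716657-107726036 (minus). *Nfil3* spans chr13:52967209-52981073 (minus), *Zbtb16* chr9:48654297-48836222 (minus) and *Bhlhe40* chr6:108660629-108666925 (plus).

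RefSeq promoters of GRCm38.p6, 250 bases before to 50 after the start, were matched for 7 of the 10 genes (9 promoters). They were searched on both strands for 6 motifs bound by the families these factors belong to, none of which contains another. The share of all 32851 promoters that hold each motif is 7.15% for the E-box CACGTG, 0.938% for the D-box TTATGTAA, 2.61% for the RORE TAGGTCA, 11.2% for the GATA motif AGATAA, 8.86% for the ETS motif CCGGAAG and 5.14% for the TCF motif CTTTGAA. Promoters of 4 members held 1 of them, and the 30 bases around each are shown because they are the places where a motif of 1 member's family stands at the start of another member. The capitals mark the motif, all 4 lines run 5′ to 3′ on the minus strand, the strand of the gene, and a match is a description of letters only.
*Bcl11b*, TCF motif as spelled, first base at -89 from the start, chr12:108003485-108003514, within an annotated exon: gaggccaagcaCTTTGAAgaagtgtgagag
*Tcf7*, the second promoter, ETS motif as reverse complement, first base at -25, chr11:52282602-52282631, outside annotated exons: agctggagtcaCTTCCGGtgccctgacctt
*Gfi1*, the second promoter, ETS motif as reverse complement, first base at 11, chr5:107724315-107724344, within an annotated exon: gctccaagcccCTTCCGGgtcccaaacact
*Nfil3*, RORE as reverse complement, first base at -12, chr13:52981033-52981062, within an annotated exon: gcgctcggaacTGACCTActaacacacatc

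GATA3 and RORα are the factors most closely tied to ILC2 identity: GATA3 drives the type 2 cytokine and receptor genes, and RORα is needed for ILC2s to develop. *Gata3* stood at 836 CPM in the naïve library, 340.5 and 689 in the week 2 and week 3 fresh ta libraries, and 586 and 902 in the week 2 and week 3 cultured ta libraries. The 5 intervals did not overlap, with the week 3 cultured ta library on top and week 2 fresh ta at the bottom. *Rora* stood at 3078 CPM in the naïve library, 161 and 1132 in the fresh ta libraries (week 2, then week 3) and 204 and 339.9 in the cultured ta libraries. All 5 *Rora* levels were separate, and the naïve and week 3 fresh ta libraries were the 2 highest. *Rora* covered a far wider range than *Gata3*: naïve over week 2 fresh ta was 19.2-fold (18.6 to 19.7) for *Rora* and 2.45-fold for *Gata3*. In *Il1rl1*+ cells alone, a gate that does not read *Gata3*, the *Gata3* levels in the same order of libraries were 856, 342, 651, 512 and 950 CPM.

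ID2 is an inhibitor that binds E proteins and keeps them from DNA, and high ID2 is a mark of innate lymphoid cells. *Id2* was at 573 CPM in the naïve library, 516 and 704 in the fresh ta libraries of weeks 2 and 3, and 1119 and 1696 in the cultured ta libraries. It was the only one of the 10 genes whose 2 cultured ta levels both lay above the naïve and both fresh ta levels, and its 5 intervals were separate. The E proteins and the other Id factors (*Tcf3*, *Tcf12*, *Tcf4*, *Id1*, *Id3*) summed to 539 CPM in naïve cells and between 80.5 and 124 in the other 4 libraries. *Tcf12*, an E protein gene, made up most of the naïve sum with 462 CPM, against 30.6 to 55.6 elsewhere.

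BCL11B and TCF-1 are shared with the T lineage, where BCL11B seals commitment and TCF-1 opens the programme. *Bcl11b* stood at 279.7 CPM in the naïve library, 75.0 and 191 in the fresh ta libraries and 146 and 183 in the cultured ta libraries, and the intervals of the 2 week 3 libraries overlapped. *Tcf7* was sparse in gated ILC2s, at 36.6 CPM in naïve cells, 1.55 and 37.2 in fresh ta cells of weeks 2 and 3, and 2.16 and 0.812 in cultured ta cells. The naïve and week 3 fresh ta *Tcf7* levels did not differ beyond counting error (37.2, interval 28.9 to 47.3), nor did those of week 2 fresh and week 2 cultured cells. The naïve and week 3 fresh ta levels were lower when the gate was narrowed to *Il1rl1*+ cells, at 22.2 and 11.6 CPM, so a part of the *Tcf7* signal sat in cells that entered the gate through *Gata3*.

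ETS1 supports ILC2 expansion and GFI1 is a repressor that maintains GATA3 and ST2 in these cells. *Ets1* was at 773 CPM in the naïve library, 92.9 and 645 in the fresh ta libraries and 223 and 318 in the cultured ta libraries, with no intervals overlapping. *Gfi1* was at 16.7 CPM in the naïve library, 2.10 and 30.6 in the fresh ta libraries, and 2.50 and 0.520 in the cultured ta libraries. Its highest level was in week 3 fresh cells and its lowest in week 3 cultured cells, and the 2 week 2 libraries could not be separated.

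NFIL3 is a basic leucine zipper factor of the earliest innate progenitors, and PLZF marks a precursor and is lost as the cells mature. *Nfil3* levels were 41.8 CPM in naïve cells, 22.0 and 69.5 in fresh ta cells and 91.9 and 38.6 in cultured ta cells, so the order of the weeks was opposite in fresh and cultured cells. *Zbtb16* was at 69.2 CPM in the naïve library and near 0 elsewhere: 0.0609 CPM (2 UMIs) and 3.33 (6 UMIs) in fresh ta cells of weeks 2 and 3, and 0.144 (8 UMIs) and 0 UMIs in cultured ta cells. The count of 0 among 61551280 UMIs allows a level of up to 0.0487 CPM, taken here and for shares as 3 counts of the total. The naïve to week 2 fresh ta ratio rested on those 2 UMIs and was 1136-fold with a counting interval of 314 to 9386.

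The naïve *Zbtb16* and *Tcf7* signals were not spread evenly over that library. In the 503 naïve cells without a UMI of either gate gene, *Zbtb16* was at 397 CPM and *Tcf7* at 208 CPM, with *Rora* still at 1554 CPM. In the 231 naïve cells with at least 2 of 4 type 17 markers (*Il23r*, *Il17a*, *Il22*, *Blk*), *Zbtb16* was at 568 CPM and *Tcf7* at 247. In the 80 with at least 2 of 6 NK or ILC1 markers they were at 275 and 202 CPM. Leaving out cells of these classes and cells with 2 endothelial markers, the 5673 remaining gated cells had 53.6 CPM of *Zbtb16* and 30.1 of *Tcf7*, still above the level of every ta library for *Zbtb16*.

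BHLHE40 is a repressor of the circadian clock that is also induced by cytokine and stress signals. *Bhlhe40* was at 543 CPM in the naïve library, 73.4 and 635 in the fresh ta libraries and 40.1 and 72.3 in the cultured ta libraries. The naïve and week 3 fresh cells stood apart as the high pair, and the week 2 fresh and week 3 cultured levels overlapped. *Bhlhe40* has little intron sequence, unlike *Rora*, *Ets1* and *Zbtb16*. Among 15 clock genes, which summed to 808 CPM in naïve cells and 203 to 533 in the others, *Hlf*, a basic leucine zipper gene, was the most abundant, with 393 CPM in the naïve library, 92.5 and 217 in the fresh ta and 152 and 341 in the cultured ta libraries.

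**Figure D1:**
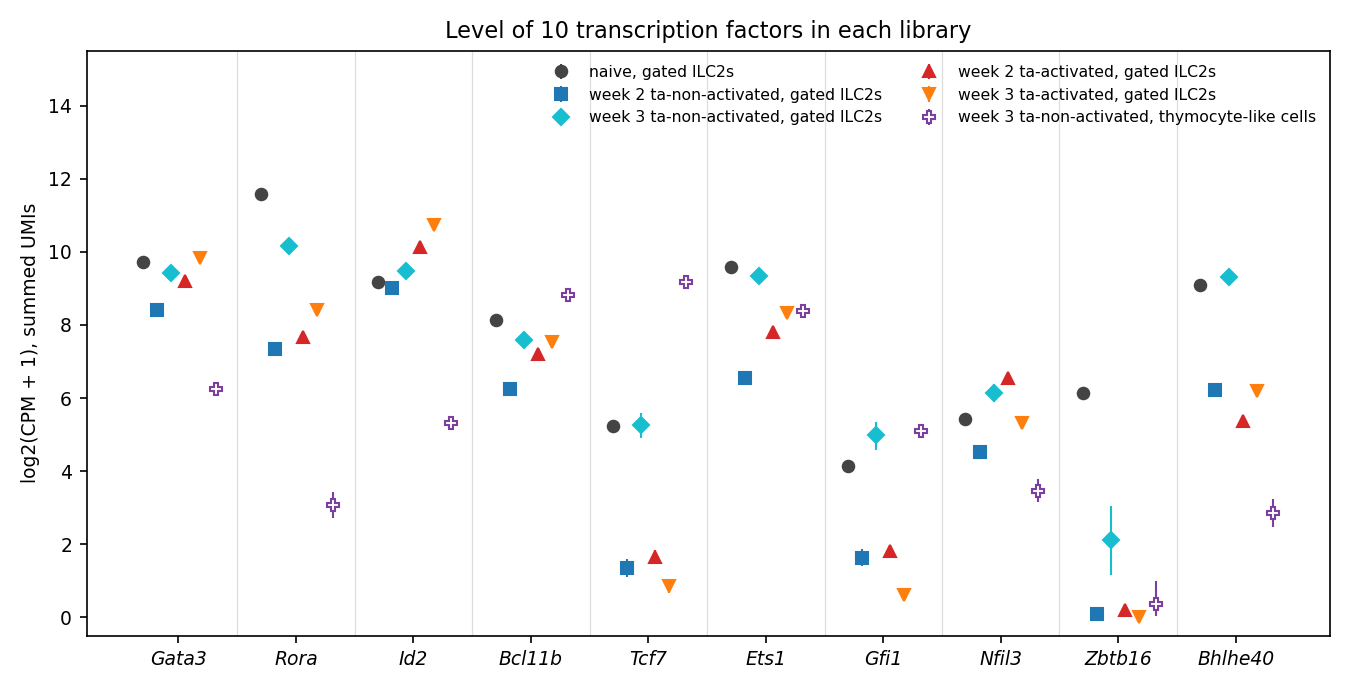
Level of each of the 10 genes, as log2(CPM + 1) of summed UMIs, in gated ILC2s of the 5 libraries and in thymocyte-like cells of the week 3 fresh ta library; bars on the points are exact Poisson 95% intervals, and the legend has the labels' names (ta-non-activated for fresh ta, ta-activated for cultured ta). *Id2* is highest in the 2 cultured ta libraries, *Zbtb16* is highest in the naïve library, and *Tcf7* and *Bcl11b* are highest in the thymocyte-like cells.

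Between libraries, each with its own fold and no test because 1 library stood on each side, the 10 genes were counted by a 2-fold limit on the log2(CPM + 1) scale, which understates changes of low genes. Printed folds are plain ratios of CPM. Background shares are over genes at 20 CPM or more on at least 1 side, a filter that between 7 and 10 of the 10 genes passed, and all 10 were counted whether or not they passed. Against week 2 fresh ta cells, naïve cells had 8 of the 10 at least 2-fold higher and 0 at least 2-fold lower (background 34.9% higher and 24.3% lower of 6566 genes), and all 10 were higher, with a median log2 difference of 2.69 against 0.19 over all genes. Against week 3 fresh ta cells, naïve cells had 2 of 10 higher, *Rora* (2.72-fold) and *Zbtb16* (20.8-fold), and 0 lower (background 27.7% and 3.08%), which is not above the background. Week 3 over week 2 fresh ta cells gave 9 of 10 higher and 0 lower, with *Id2* (1.36-fold) the exception (background 17.8% and 25.1%), and a median of 2.41 against -0.19. Of the 9, *Zbtb16* rested on 6 and 2 UMIs. The 3 ratios share libraries, so the first and the third both carry the low levels of the week 2 fresh ta library. Week 3 over week 2 cultured ta cells gave 0 of 10 higher and 2 lower, *Gfi1* and *Nfil3* (background 3.13% and 2.24%).

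Shares of cells with a UMI depend on depth, and the median gated naïve cell held 4552 UMIs, against 16279 and 2874 in the fresh ta libraries and 14209 and 12447 in the cultured ta libraries. Cells with at least 2000 UMIs were therefore thinned to 2000, which kept 5703, 1766, 523, 2680 and 3674 gated cells in the same order and 840 thymocyte-like cells (median 6368 UMIs before thinning). *Rora* was found in 93.0% of naïve cells, 26.7% and 74.2% of fresh ta cells and 32.7% and 49.7% of cultured ta cells (unthinned 97.5%, 83.1%, 81.5%, 86.9% and 93.5%), and in 1.67% of thymocyte-like cells (4.05% unthinned). The thinned order followed the CPM and the unthinned order did not. *Id2* was found in 56.5% of naïve cells, 61.7% and 58.9% of fresh ta cells and 78.0% and 93.1% of cultured ta cells (unthinned 76.5%, 97.3%, 68.8%, 97.6% and 99.8%), against 7.14% of thymocyte-like cells (18.2% unthinned).

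*Bhlhe40* was found in 53.5% of naïve, 14.7% and 56.2% of fresh ta and 6.53% and 12.1% of cultured ta cells after thinning, against 1.55% of thymocyte-like cells. Unthinned, its shares were 73.7%, 56.9%, 64.6%, 31.3%, 48.4% and 3.81%. *Tcf7* had a UMI in 5.19% of naïve cells, 0.453% and 3.63% of fresh ta cells and 0.485% and 0.109% of cultured ta cells, against 62.1% of thymocyte-like cells (unthinned 10.7%, 2.32%, 5.74%, 2.01%, 0.980% and 89.6%). *Zbtb16* was found in 6.58% of naïve cells, 0.574% of week 3 fresh ta cells and 0.0373% of week 2 cultured ta cells (unthinned 11.0%, 0.956% and 0.149%). It was found in 0 of 1766 week 2 fresh ta cells, which allows a share of up to 0.170%, in 0 of 3674 week 3 cultured ta cells (up to 0.0817%) and in 0 of 840 thymocyte-like cells (up to 0.357%). These limits are on cells with a UMI at this depth, not on cells that express the gene, and the upper end of the exact interval in the plot of shares is higher, at 0.209% for week 2 fresh ta cells. At equal depth each of the 10 genes but *Id2* was found in a smaller share of week 2 fresh ta cells than of naïve cells.

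**Figure D2:**
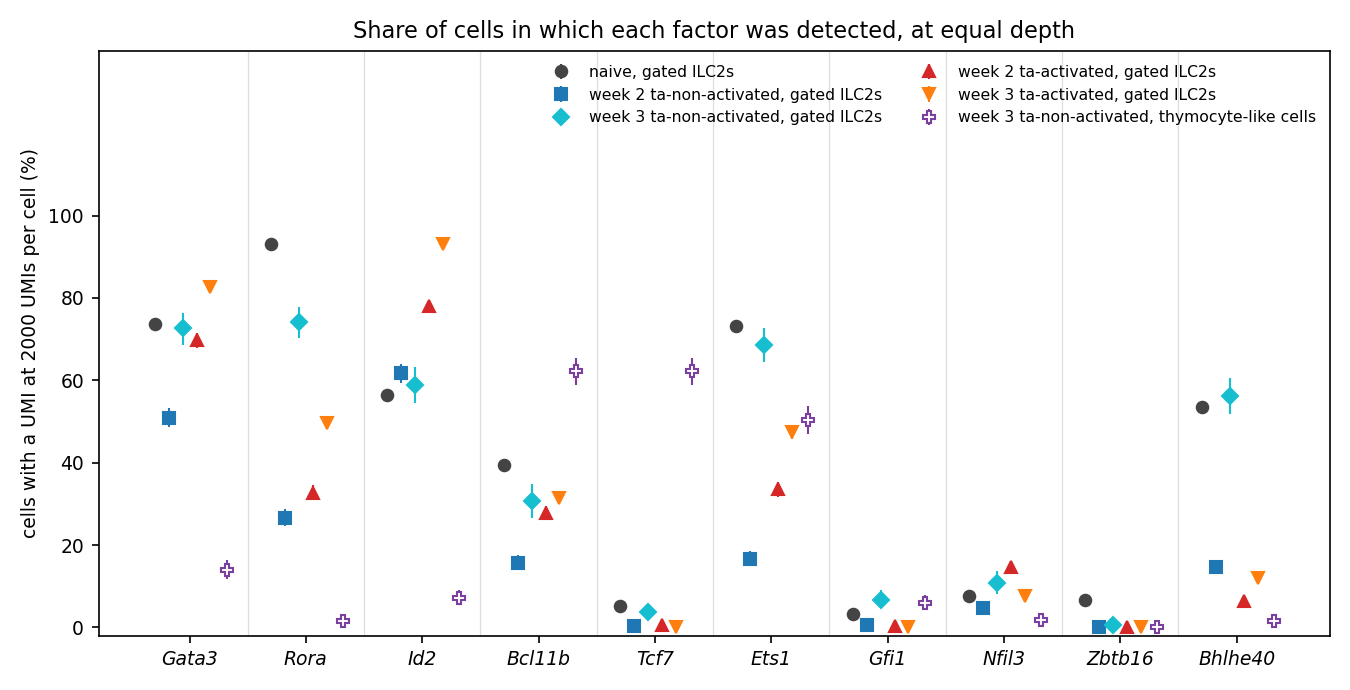
Percent of cells with at least 1 UMI of each gene after thinning to 2000 UMIs, for gated ILC2s of the 5 libraries and thymocyte-like cells of the week 3 fresh ta library, with exact Clopper-Pearson 95% intervals. *Rora* is found in 93.0% of naïve and 26.7% of week 2 fresh ta cells, and *Tcf7* is found in 62.1% of thymocyte-like cells.

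Counted together in thinned cells, a median of 4 of the 10 genes was detected per naïve cell, 2 and 4 per fresh ta cell of weeks 2 and 3, and 3 per cultured ta cell of either week. At least 4 of the 10 were found in 70.8% of naïve cells, 8.49% and 62.1% of fresh ta cells and 23.0% and 41.0% of cultured ta cells. *Gata3* and *Rora* were found in the same cell in 69.1% of naïve cells, 14.1% and 54.3% of fresh ta cells, 23.3% and 42.2% of cultured ta cells and 0.595% of thymocyte-like cells. Because the gate reads *Gata3*, the ILC2 shares of this pair are a description.

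The naïve shares have no low background in their own library, although endothelium uses some of the genes itself, *Ets1* among them. Of its 80 cells with 2 or more endothelial markers, whose 5 markers summed to 2086 CPM, 60 also passed the ILC2 gate, and *Il1rl1* was at 642 CPM in the 80. Thinned to 2000 UMIs, 69 of these cells (median 5303 UMIs before thinning) held a median of 4 of the 10 genes. *Rora* was found in 78.3% of them, *Gata3* in 59.4%, both together in 55.1%, *Id2* in 55.1% and *Bhlhe40* in 44.9% (unthinned 88.4% for *Rora*, 79.7% for *Gata3*, 71.0% for *Id2* and 66.7% for *Bhlhe40*). *Tcf7* was found in 4.35% and *Zbtb16* in 7.25% (unthinned 7.25% and 11.6%). The naïve ILC2 share lay inside the exact interval of the 69 cells for *Id2*, *Tcf7*, *Gfi1*, *Nfil3*, *Zbtb16* and *Bhlhe40* and above it for *Gata3*, *Rora*, *Bcl11b* and *Ets1*. With 69 cells the intervals were wide, for example 42.6% to 67.1% for *Id2* and 0.906% to 12.2% for *Tcf7*. At that precision the shares of the 6 genes in naïve ILC2s cannot be told from those in this class, which is no measure of likeness. Most cells of the class had also passed the ILC2 gate, so the 2 classes were not independent. The part of free RNA or of doublets in either class was not tested.

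In the week 3 fresh ta library, gated ILC2s and thymocyte-like cells were measured in 1 library and so at 1 time and in 1 preparation, with no replicate. In ILC2s 6 of the 10 genes were at least 2-fold higher and 2 were at least 2-fold lower (background 14.9% higher and 26.1% lower of 6060 genes). The median log2 difference of the 10 was 2.21, and that of all genes -0.33. The 6 include *Gata3*, which the gate reads, so the count and the median are partly set by the choice of cells. They also include *Zbtb16*, which at 3.33 and 0.280 CPM lay under the 20 CPM filter of the background. *Rora* was at 1132 CPM in ILC2s and 7.41 in thymocyte-like cells, 153-fold (interval 116 to 205). *Bhlhe40* was at 635 and 6.30 CPM, 100.8-fold (74.8 to 139). *Id2* was at 704 and 38.6 CPM, 18.2-fold (16.0 to 20.9).

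*Nfil3* was 6.90-fold higher in ILC2s (69.5 and 10.1 CPM, interval 5.12 to 9.35), and *Zbtb16* 11.9-fold, with an interval of 2.13 to 121 because it rested on 6 and 2 UMIs. *Gata3*, which T cell precursors also use, was at 689 and 75.4 CPM, a 9.14-fold difference that the gate helped to set. *Ets1*, common to both lineages, was 1.93-fold higher in ILC2s (1.80 to 2.07). *Gfi1* was at 30.6 and 33.3 CPM, with an interval of the ratio from 0.672 to 1.24.

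The 2 genes that lay the other way were the T lineage pair. *Tcf7* was at 579.9 CPM in thymocyte-like cells and 37.2 in ILC2s, 15.6-fold higher, and *Bcl11b* was at 454 and 191 CPM, 2.38-fold higher. *Tcf7* and *Bcl11b* were each found in 62.1% of thymocyte-like cells at 2000 UMIs, against 3.63% and 30.6% of the ILC2s. Of the E protein and Id genes, *Tcf12* was at 186 CPM in thymocyte-like cells and 55.6 in ILC2s, *Tcf3* at 109 and 31.1, and *Id3* at 131 and 7.22. *Id3* and *Id2* therefore lay in opposite directions between the cell types. The 9 thymocyte markers summed to 5000 CPM in the thymocyte-like cells and 17.8 in the gated ILC2s, and the 11 ILC2 markers to 556 and 5970, as the choice of the cells would set.

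Within the thymocyte-like cells, 124 held 2 or more of 8 mitotic genes once thinned and 716 did not. *Bcl11b* was at 303 CPM in the 124 and 518 in the 716, *Ets1* at 261 and 366, and *Tcf7* at 657 and 547. The 313 thymocyte-like cells with a UMI of *Il1rl1* or *Gata3* had 620 CPM of *Tcf7* and 11.9 of *Rora*. All thymocyte-like cells together had 579.9 and 7.41 CPM, so *Rora* was higher in the 313. Gated ILC2s, at 37.2 and 1132 CPM, were far from both. With these cells left in the gate, the week 3 fresh ta levels would read 409.5 CPM for *Tcf7*, 336 for *Bcl11b*, 417 for *Rora*, 281 for *Id2*, 233 for *Bhlhe40* and 31.9 for *Nfil3*.

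**Figure D3:**
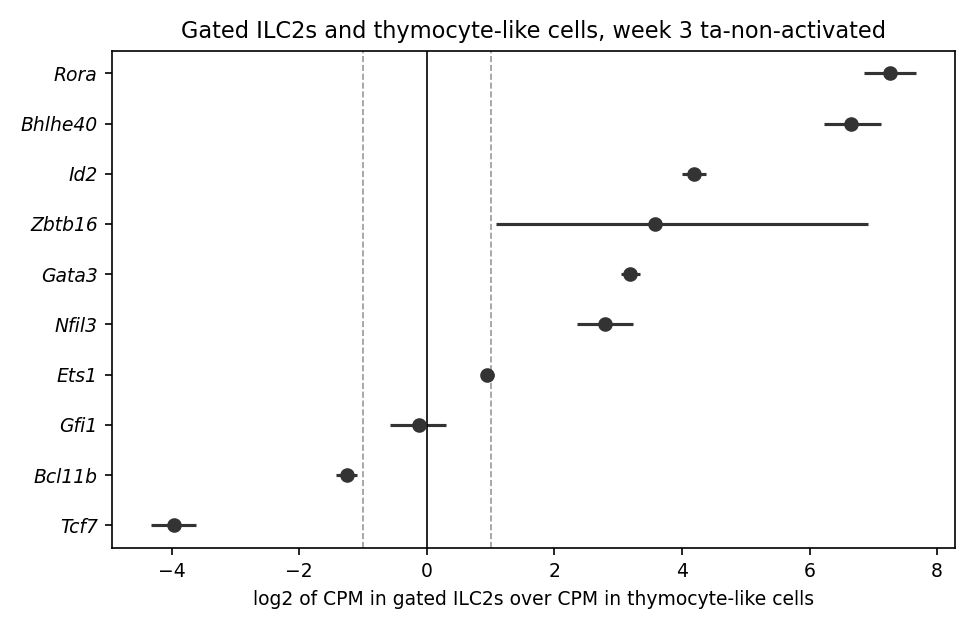
Log2 ratio of CPM between gated ILC2s and thymocyte-like cells of the week 3 fresh ta library for each of the 10 genes, with exact 95% counting intervals; dashed lines mark a 2-fold difference. *Rora* and *Bhlhe40* lie farthest to the ILC2 side and *Tcf7* farthest to the thymocyte-like side, and the interval of *Gfi1* crosses 0.

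Activation in culture with IL-2, IL-33 and TSLP was compared between the 2 cultured (ta-activated) and the 2 fresh (ta-non-activated) libraries, the replicated contrast of the design. *Id2* was the only one of the 10 genes at least 2-fold higher after culture at both weeks, 2.17-fold at week 2 and 2.41-fold at week 3. At week 2, *Nfil3* (4.19-fold), *Ets1* (2.397-fold) and *Id2* were at least 2-fold higher and 0 of the 10 were 2-fold lower (background 15.3% and 12.1% of 5734 genes). At week 3, *Id2* alone was 2-fold higher and 6 genes were 2-fold lower (background 22.9% and 10.2% of 5953 genes): *Gfi1* 58.8-fold, *Tcf7* 45.8-fold, *Bhlhe40* 8.78-fold, *Rora* 3.33-fold, *Ets1* 2.03-fold, and *Zbtb16*, from 6 UMIs to 0. The median log2 difference of the 10 was 0.56 at week 2 (0.01 over all genes) and -1.37 at week 3 (0.30).

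With both weeks in 1 fit, the quasi-likelihood test of edgeR, with p-values adjusted by Benjamini-Hochberg, called 0 of 12509 genes (0.0%), 9 of the 10 among them, with *Zbtb16* removed by the filter on low counts. An unadjusted p under 0.05 was reached by 1551 genes, and DESeq2 called 508, 337 of them higher. *Id2* was higher by 1.01 on the log2 scale (SE 0.41, edgeR adjusted p 0.42). The estimates for *Tcf7* (-3.75, SE 1.51, edgeR adjusted p 0.41), *Gfi1* (-3.47, SE 1.46, 0.43) and *Bhlhe40* (-2.82, SE 1.05, 0.39) were large but so was the spread between the weeks. DESeq2 put *Tcf7* (adjusted p 0.0392) and *Bhlhe40* (0.0488) past the threshold, both as lower, the direction of the smaller part of its 508 calls. The share of all genes that DESeq2 called lower is not given here, so these 2 calls are not set against a background. The estimate was -1.42 (SE 0.92) for *Rora*, -0.61 (0.89) for *Ets1*, 0.38 (0.74) for *Nfil3*, 0.35 (0.50) for *Gata3* and 0.13 (0.55) for *Bcl11b*, with edgeR adjusted p from 0.58 to 0.94. In simulated data of this layout, with changed genes drawn from those above a set mean CPM, 0% of them were recovered at a log2 change of 1 and 8% at 2.

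Without the week 2 fresh ta library, edgeR called 178 genes, and *Bhlhe40* was at -3.64 (adjusted p 0.0518), *Tcf7* at -4.77 (0.0575), *Rora* at -2.20 (0.0649), *Ets1* at -1.40 (0.0886), *Gfi1* at -4.46 (0.0909) and *Id2* at 0.86 (0.207), none past the threshold. *Gata3* (-0.03), *Bcl11b* (-0.36) and *Nfil3* (-0.21) changed sign there. In that fit the lone fresh ta library is assumed to vary like the cultured ta pair. Without the week 3 fresh ta library *Rora* turned to 0.50 and *Ets1* to 1.29, and the 3 large estimates shrank to -0.30 for *Tcf7*, -0.70 for *Gfi1* and -0.64 for *Bhlhe40*, so their size rested on that library. Scaling by library totals in place of TMM shifted the median of all genes from -0.02 to 0.18, and each of the 9 tested members had the same sign under both. Libraries of 1 group were separate pools of mice from different weeks, and p-values measure only the spread between these pools.

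Within libraries, cells that cycle could be compared with cells that do not, with the library as the pair. Cycling cells were those with UMIs of at least 2 of 8 mitotic genes after thinning: 29 naïve, 82 week 2 fresh ta, and 565 and 589 cultured ta cells of weeks 2 and 3, while the week 3 fresh ta library had 6 and was left out. Of the 9 genes other than *Gata3*, 2 were lower in cycling cells and 0 higher (edgeR adjusted p under 0.05, background 6.28% lower, 7.46% higher and 13.7% in all of 12808 genes). *Bhlhe40* fell by 1.02 on the log2 scale (SE 0.17, edgeR adjusted p 0.00493) and *Rora* fell by 0.56 (SE 0.13, 0.0194). *Gata3*, which the gate reads, was at -0.54 and is given as a description. In *Il1rl1*+ cells, a gate that does not read it, *Gata3* was at -0.58 (edgeR adjusted p 0.0234, background 3.79% lower and 6.47% higher of 11291 genes). The naïve library, with 18 cycling *Il1rl1*+ cells, was left out of that fit as well.

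*Bhlhe40* was at 349.8 CPM in cycling and 547 in other naïve cells, 29.96 and 77.1 in week 2 fresh ta cells, 24.3 and 47.5 in week 2 cultured ta cells and 59.2 and 76.7 in week 3 cultured ta cells. *Rora* was at 2328 and 3073, 134.8 and 163, 171 and 219.6, and 273 and 362 CPM in the same order. *Gata3* was at 618 and 836, 255 and 347, 529 and 612, and 786 and 940.4 CPM. Each of the 3 genes was lower in cycling cells in 4 of 4 libraries.

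Median depth was higher in cycling cells, at 21991 against 11655 UMIs in week 3 cultured ta cells for example, and a deep cell can enter the gate at a lower *Gata3* CPM. Scaling by library totals moved the median of all genes from -0.10 to 0.06 and the split of calls from 956 higher and 804 lower to 1521 and 441. There *Bhlhe40* was still past the threshold and *Rora* (adjusted p 0.0532) was not. Without the week 2 fresh ta library *Bhlhe40* (-0.83, 0.0241) and *Rora* (-0.57, 0.0406) kept their calls. *Rora* lost its call without either cultured ta library (0.110 and 0.138), while its estimates with 1 library left out stayed between -0.58 and -0.48. *Bhlhe40* lost its call in *Il1rl1*+ cells (-0.76, 0.0585), in the fit without the naïve library.

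*Id2* narrowly missed the threshold (-0.41, SE 0.12, edgeR adjusted p 0.0513, lower in 3 of 4 libraries), and *Bcl11b* missed it too (-0.39, SE 0.14, 0.0948). The other 5 genes had values from -0.75 (*Gfi1*) to 0.33 (*Tcf7*) with adjusted p of 0.156 or more. Type 17 markers summed to 954 CPM in cycling and 149 in other week 2 fresh ta cells, and NK or ILC1 markers to 71.4 and 13.9 in naïve cells. Without cells holding at least 2 markers of these types or of endothelium, the same 2 genes were called (edgeR adjusted p of 0.0048 for *Bhlhe40* and 0.0238 for *Rora*), and *Id2* with them (0.0478). That filter kept 77 of the 82 cycling week 2 fresh ta cells and 28 of the 29 cycling naïve cells. The 2 fits therefore share nearly all of these cells, and the part of such markers in the calls was not tested. Of 5 T cell genes tested 2 were lower in cycling cells. In cells without 2 or more T cell markers, which left the cultured ta libraries, *Rora* (edgeR adjusted p 0.00307) and *Bhlhe40* (0.00406) kept their calls. That fit called more genes in all than the main fit (counts in the last section), so a call there sets a gene less apart.

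Among related genes, 3 of 11 type 2 genes known to need GATA3, left after the gate gene *Il1rl1*, were lower in cycling cells and 0 higher, with a list median of -0.53 against -0.10 over all genes: *Il7r*, the IL-7 receptor gene (-1.03, edgeR adjusted p 0.00148), *Il5* (-1.01, 0.00448) and *Areg*, amphiregulin (-0.78, 0.0188). Of 16 early innate lymphoid and T lineage factors, *Myb* (1.63) and *Cbfb* (0.52) were higher and *Bach2* (-1.55) and *Zfp36l2* (-0.59) lower. Of 14 clock genes tested *Dbp* alone was called, lower with a log2 value of -0.59, and 0 of 5 E protein and Id genes were. Over all 12808 genes 7.46% were called higher, 6.28% lower and 13.7% in either direction. The counts of called clock, E protein and Id genes did not lie above that last share. List members named in this paragraph were picked for their calls after the values were seen.

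Cells with and without an *Il5* UMI were compared in the same way, in cells thinned to 2000 UMIs so that both classes had equal depth. Both classes had passed the gate, which reads *Gata3* before thinning. *Il5*, a signature cytokine of ILC2s, was found in 925 naïve cells, 1072 and 82 fresh ta cells and 1469 and 2084 cultured ta cells. Of the 9 genes other than *Gata3*, 3 were higher in *Il5*+ cells and 1 was lower (background 2.64% higher, 0.957% lower and 3.59% in all of 10242 genes). *Id2* was higher by 0.32 (SE 0.06, edgeR adjusted p 0.000668), *Bhlhe40* by 0.32 (SE 0.08, 0.00768) and *Rora* by 0.23 (SE 0.07, 0.0397), and *Zbtb16* was lower (-0.81, SE 0.24, 0.0442). *Gata3* was at 0.26, a description as the gate reads it, and in *Il1rl1*+ cells at 0.30 (edgeR adjusted p 0.0199, background 1.32% higher and 0.188% lower of 8502 genes).

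*Id2* was at 615 CPM in *Il5*+ and 574 in *Il5*- naïve cells, 591 and 547 in week 2 fresh ta cells, 1104 and 608 in week 3 fresh ta cells, 1234 and 891 in week 2 cultured ta cells and 1833 and 1760 in week 3 cultured ta cells. *Gata3* was at 951 and 800.0, 379 and 339, 890.2 and 679, 726 and 653, and 1064 and 953 CPM in that order. *Bhlhe40* was at 612 and 511, 95.6 and 74.2, 841.5 and 607, 40.8 and 33.0, and 70.1 and 67.6 CPM. All 3 were higher in *Il5*+ cells in 5 of 5 libraries, by differences that stayed under 1 on the log2 scale.

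*Rora* was higher in 4 of 5 libraries, and without the week 3 fresh ta library, where it was at 1768 and 992 CPM, its adjusted p was 0.314. Without the naïve library *Rora* was at an adjusted p of 0.12 and *Bhlhe40* at 0.0871. Without the week 2 fresh ta library the adjusted p was 5.14e-05 for *Id2*, 0.0173 for *Rora*, 0.0214 for *Zbtb16* and 0.0291 for *Bhlhe40*, and *Nfil3* passed the threshold (0.39, 0.0341). *Zbtb16* rested on the naïve cells (32.4 and 58.1 CPM), since no other library had more than 3 UMIs in a class, and without cells holding type 17, NK or endothelial markers its value was -0.46 (0.449) and the adjusted p of *Rora* was 0.0590. *Zbtb16* also missed the threshold without week 3 fresh (0.0523) or either cultured ta library (0.0505 and 0.0720). *Ets1* was higher in 5 of 5 libraries and missed the threshold (0.20, SE 0.07, edgeR adjusted p 0.0765). *Nfil3* (0.29), *Bcl11b* (-0.12), *Gfi1* (-0.07) and *Tcf7* (-0.68) had adjusted p from 0.196 to 0.958.

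T cell markers moved with the *Il5* classes: the 8 markers summed to less in *Il5*+ than in *Il5*- cells in all 5 libraries (984 and 1103 CPM in naïve cells, 354 and 446 in week 3 cultured ta cells), and *Cd3d*, *Cd3e* and *Cd3g* were called lower. *Mcpt8*, a basophil gene, and *Sftpc*, a lung epithelial gene, were called higher and *Epcam* lower. In cells without 2 or more T cell markers, none of the 4 calls remained (adjusted p 0.145 for *Id2*, 0.0585 for *Bhlhe40*, 0.153 for *Rora* and 0.990 for *Zbtb16*), in a fit with fewer cells. Scaling by library totals changed the split of calls from 270 higher and 98 lower to 188 and 160. With thinning to 1000 UMIs *Id2* alone of the 4 kept its call, and in *Il1rl1*+ cells none did (adjusted p 0.0738 or more).

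Of the 10 GATA3-dependent genes left after *Il5*, which chose the cells, and the gate gene *Il1rl1*, 4 were higher in *Il5*+ cells and 0 lower (background 2.64% higher, list median 0.16, all genes -0.01). They were *Il13* (1.73, SE 0.08), *Areg* (1.23, SE 0.07), *Il2ra*, the IL-2 receptor α gene (0.66, SE 0.07), and *Klrg1* (0.61, SE 0.16). Of the early factors *Hes1* (0.54) and *Batf* (0.42) were higher and *Zfp36l2* (-0.36) lower, of 13 clock genes *Dbp* was lower (-0.69), and of 4 E protein and Id genes *Id3* was lower (-1.05, edgeR adjusted p 0.000577), opposite to *Id2*. These members too were named after their values were seen.

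**Figure D4:**
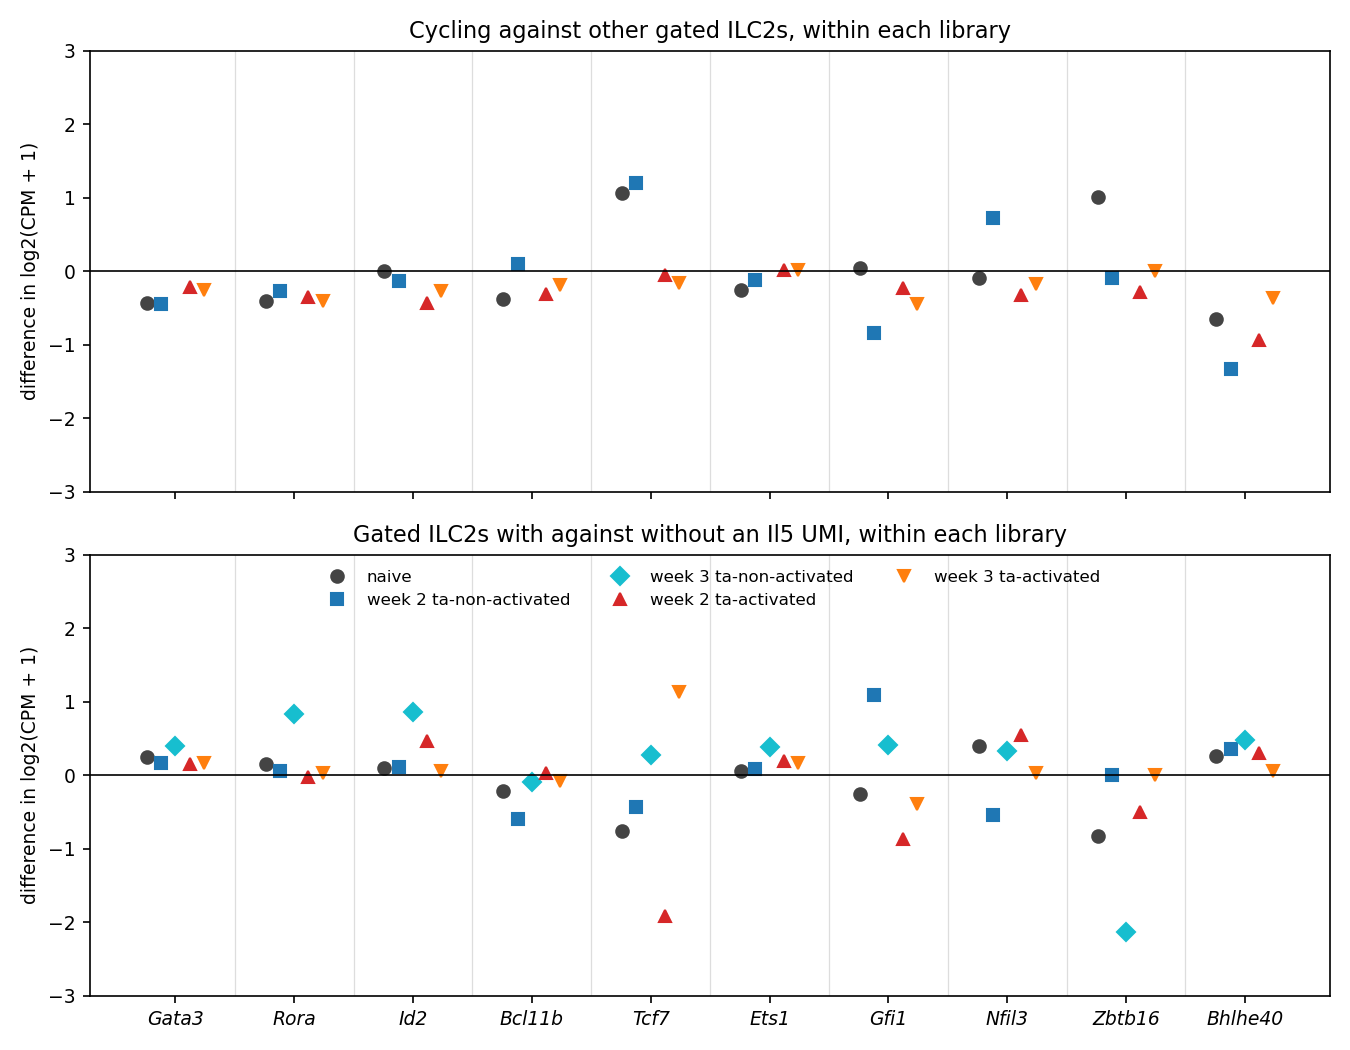
Difference in log2(CPM + 1) of each of the 10 genes between cycling and other gated ILC2s in 4 libraries (one panel) and between *Il5*+ and *Il5*- gated ILC2s in 5 libraries (the other panel); each point is a library. *Bhlhe40*, *Rora* and *Gata3* lie below 0 in 4 of 4 libraries for cycling cells, and *Id2*, *Gata3* and *Bhlhe40* above 0 in 5 of 5 libraries for *Il5*+ cells.

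Around the 10 genes, the early innate lymphoid and T lineage factors summed to 5640 CPM in naïve cells, 659 and 3470 in fresh ta cells, 1175 and 1341 in cultured ta cells and 3280 in thymocyte-like cells. *Zfp36l2*, an mRNA decay factor, was the most abundant of them in naïve and week 3 fresh ta cells, with 1357 CPM in naïve cells, 59.2 and 1099 in fresh ta cells and 125 and 126 in cultured ta cells. *Batf*, an AP-1 family factor, lay above *Zfp36l2* in the other 3 libraries, at 34.0 CPM in naïve cells, 259 and 25.6 in fresh ta cells and 228 and 380.0 in cultured ta cells. *Lmo4*, a LIM domain adaptor, was likewise high in naïve and week 3 fresh ta cells, at 529, 27.9 and 924, and 53.9 and 80.1 CPM. *Hes1*, a target of Notch, was at 118 CPM in naïve cells, 21.4 and 616 in fresh ta cells, 14.8 and 20.7 in cultured ta cells and 1148 in thymocyte-like cells. The GATA3-dependent genes summed to 5188, 11491, 4418, 9166 and 8220 CPM from naïve to week 3 cultured ta cells, and without *Il13* to 5129, 2565, 4324, 5584 and 3890 CPM. In week 2 fresh ta cells 10 of the 12 were lower than in naïve cells, among them *Il7r* (169 and 1341 CPM) and *Areg* (352 and 1001), and *Il13* and *Il5* were higher. In the activation fit 0 of the tested genes of any of these lists was called by edgeR, and list medians lay between -0.39 and 0.21.

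Last, each gene's profile over the 6 populations (gated ILC2s of 5 libraries and thymocyte-like cells) was compared with that of 5650 genes, as the Euclidean distance between centred log2(CPM + 1) values. *Rora* was nearest to *Il1rl1* (0.58), a gate gene, and *Bhlhe40* to *Klrg1* (0.70), the gene of an inhibitory receptor of mature ILC2s. *Tcf7* was nearest to *Trdc* (0.83) and *Cd3e* (1.61), both T cell receptor complex genes. *Id2* was nearest to *Pea15a* (0.62), *Ets1* to *Etv3* (0.69), another ETS family gene, *Bcl11b* to *Cbl* (0.57), *Nfil3* to *Ctla2a* (0.58), *Gata3* to *Dennd1c* (0.58), *Gfi1* to *Tspan13* (0.94) and *Zbtb16* to *Arl15* (0.96). With 6 points that share libraries, these distances are descriptions.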

How the data were processed

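Levels of the 10 genes were taken from 5 single-cell libraries of mouse lung ILC2s (naïve, ta-non-activated, ta-activated). What the authors deposited are raw UMI counts by gene and barcode, with no scaling. Matrix headers name Cell Ranger 6.0.0 (naïve) and 3.0.2 (others), and the submitters' notes name Seurat 3 and GRCm38. The annotation used for counting is not given in the sources used here. GENCODE M21 matched 27639 of 27726 genes. No doublet caller was run.

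The 10 genes and all lists were chosen with earlier results of these data known. One gene of the lists is not reported here and was left out of their sums, counts and classes. Named genes are the 10, gate genes, the most abundant members of each list and genes named after their values were seen, as stated.

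UMIs were summed per library and class. Ratios used log2(CPM + 1), a 2-fold limit and genes at 20 CPM or more. edgeR 4.0.16 in R 4.3.3 used filterByExpr, TMM and quasi-likelihood F tests, adjusted over all genes by Benjamini-Hochberg with a threshold of 0.05. Library was a block within libraries. On simulated data in which 200 genes changed, at a log2 change of 1, 92% were recovered for cycling and 99.5% for *Il5*. The changed genes were drawn only from those above a set mean CPM, so these shares do not cover sparse genes or smaller changes. Alternatives were DESeq2 1.42.0, other filters, gates, depths, blocks and scalings. Python 3.11.15, numpy 2.4.6, scipy 1.17.1, pandas 2.3.3 and matplotlib 3.10.9 were used.

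Both ta groups share week numbers, but no label states a shared litter or batch. Same-week deviations correlated at 0.12 over 5592 genes.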

Additional observations from a re-analysis of the deposited data

Results flagged for a closer look

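For *Rora*, *Ets1* and *Nfil3* the difference between ta-activated and ta-non-activated cells had opposite signs in the 2 weeks, in log2(CPM + 1). *Rora* was at 0.34 at week 2 and -1.73 at week 3, a difference between the weeks of 2.08. *Ets1* was at 1.25 and -1.02 (2.27 apart), and *Nfil3* at 2.02 and -0.83 (2.85 apart). With 1 library per week and state, the difference between the weeks was not tested. All 3 genes had their lowest fresh level in the fresh week 2 cells, from the library whose *Il13* and *Il1rl1* levels lay with the ta-activated libraries.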

How the results depend on the processing

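Of the 10 genes' levels, 168 of the recomputed values moved by less than their counting interval and 132 by more. The members lower in week 2 ta-non-activated than in naïve cells numbered 9 or 10 under the 6 settings tried, with 9 after thinning the gate and in means over cells, and 5 or 6 genes were 2-fold higher in ILC2s than in thymocyte-like cells under the 6 settings tried for that comparison.

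For activation, edgeR called 0 genes, DESeq2 508, the fit of all genes with at least 1 count 124 and the fit with a replicate block for the week 41. Leaving out 1 library gave 129 to 499 calls: 178 and 499 without week 2 and week 3 ta-non-activated, 129 and 163 without week 2 and week 3 ta-activated. With all kept cells the sign turned for *Rora* (0.295), *Bcl11b* (-0.53) and *Ets1* (0.0790), and with thymocyte-like cells in the gate for *Bcl11b* (-0.32) and *Ets1* (0.0193). With 1 library left out, *Tcf7* ranged from -4.77 to -0.30, *Gfi1* from -5.16 to -0.70, *Bhlhe40* from -3.64 to -0.64 (the ends nearest 0 without week 3 ta-non-activated), *Gata3* from -0.0329 to 0.87, *Rora* from -2.20 to 0.50, *Bcl11b* from -0.36 to 0.88, *Ets1* from -1.40 to 1.29 and *Nfil3* from -0.49 to 1.34.

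For cycling, 1760 genes were called, 219 with no replicate block, 1159 in *Il1rl1*+ cells, where the naïve library dropped out, and 3502 without T cell marker cells, where 2 libraries remained. One library left out gave 828 to 1911, with 828 and 902 without the week 2 and week 3 ta-activated libraries. *Nfil3* turned to 0.00873 with library totals and 0.0397 with thinned counts, and *Zbtb16* to -0.35 in DESeq2. For *Il5*, 368 genes were called, 132 by DESeq2, 1 with no replicate block, 186 with thinning to 1000 UMIs, 128 in *Il1rl1*+ cells and 204 without T cell marker cells. One library left out gave 242 (without week 2 ta-activated) to 379. *Gfi1* turned to 0.38 with thinning to 1000 UMIs and ranged from -0.23 to 0.14 with 1 library left out. None of the members' calls in cycling or *Il5* held with no replicate block. The cause was not tested in any case. Library totals and the fits without marker cells were chosen after seeing the data. *Zbtb16* had at most 8 UMIs in the gated cells of a ta library, so its ratios there rest on few counts.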
